A study of Mus musculus with 18 samples.

Results

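The 7 genes described here encode the keratins that mark the cell layers of the mammary epithelium. They comprise Krt5, Krt14 and Krt15, named as basal keratins, and Krt7, Krt8, Krt18 and Krt19, named as luminal or simple keratins. They were found by symbol in a table of 24376 genes, and all 7 were among the 17269 genes that passed the filter on low counts. The RNA came from mouse mammary buds 1 to 3, whose epithelium had been dissected by hand, in embryos of a mix of C57Bl/6 and NMRI. The question was what constant Wnt/β-catenin signalling does to this epithelium before birth. The 4 groups were E16.5 stabilized (n = 5), E16.5 control (n = 5), E13.5 stabilized (n = 4) and E13.5 control (n = 4), named by embryonic day and genotype. Stabilized embryos were Krt14Cre/wt; Ctnnb1 flox3/wt, with the gene written Ctnn1b in the labels. In them a Cre recombinase driven by the promoter of Krt14, itself a member of the set, removes exon 3 from 1 allele of Ctnnb1, the gene of β-catenin, and the shortened protein escapes degradation. Controls were Krt14wt/wt; Ctnnb1 flox3/wt littermates, so all groups carry the floxed allele. The controls have no Cre, and an effect of Cre itself cannot be told apart from that of stabilized β-catenin. The labels write Cre as an allele of Krt14. Any effect of that allele on the counts, shares and ratios of Krt14 itself cannot be told apart either. E16.5 libraries came from females and E13.5 libraries from both sexes, so stage and sex makeup cannot be told apart. Each library pooled 2 to 3 embryos of 1 litter and genotype.

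Keratins are the intermediate filament proteins of epithelia. A filament is built from pairs of a type I and a type II chain, so each epithelium makes matched partners. Krt5 (type II) with Krt14 (type I) is the pair of basal cells of stratified and glandular epithelia, and Krt15 is a further type I keratin of basal cells. Krt8 (type II) with Krt18 (type I) is the pair of simple epithelia and of luminal mammary cells, with Krt7 (type II) and Krt19 (type I) as further chains of glandular and ductal epithelia. In the adult gland these keratins separate basal from luminal cells, whereas in the embryonic bud many cells carry both kinds.

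By GENCODE positions on GRCm38, Krt14 (ENSMUSG00000045545, chr11:100203162-100207548, minus strand), Krt15 (ENSMUSG00000054146, chr11:100131758-100135928, minus) and Krt19 (ENSMUSG00000020911, chr11:100140810-100148665, minus) lie within 75790 bases of chromosome 11. Krt5 (ENSMUSG00000061527, chr15:101707070-101712898, minus), Krt7 (ENSMUSG00000023039, chr15:101411043-101430313, plus), Krt8 (ENSMUSG00000049382, chr15:101996698-102004482, minus) and Krt18 (ENSMUSG00000023043, chr15:102028180-102032027, plus) lie within 620984 bases of chromosome 15. Krt18 is the type I gene of the set that sits among type II genes, and its start is 23698 bases from that of its partner Krt8. The promoters below are shown because Krt5, Krt7 and Krt8 differed between the genotypes at both stages, and Krt18 as the partner of Krt8. Each runs from 250 bases before to 50 bases after the RefSeq start on GRCm38.p6, 5′ to 3′ on the strand of the gene. Capitals mark matches, on either strand, to the TCF/LEF cores CTTTGA and CTTTGT, the AP-2 motif GCCNNNGGC and the TATA box TATAAA.
Krt5 (chr15:101712856-101713155, minus): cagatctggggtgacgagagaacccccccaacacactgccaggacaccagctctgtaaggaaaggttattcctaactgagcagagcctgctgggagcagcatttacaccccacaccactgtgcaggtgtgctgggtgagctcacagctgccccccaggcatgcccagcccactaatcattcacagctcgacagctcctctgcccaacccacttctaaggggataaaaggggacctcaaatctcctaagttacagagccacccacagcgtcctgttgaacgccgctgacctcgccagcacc
Krt7 (chr15:101412153-101412452, plus): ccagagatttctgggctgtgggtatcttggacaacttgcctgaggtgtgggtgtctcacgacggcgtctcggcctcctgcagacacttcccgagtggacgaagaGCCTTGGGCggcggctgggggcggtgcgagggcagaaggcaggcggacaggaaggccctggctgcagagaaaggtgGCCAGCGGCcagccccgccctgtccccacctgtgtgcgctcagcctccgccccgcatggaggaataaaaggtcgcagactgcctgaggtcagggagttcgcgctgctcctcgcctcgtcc
Krt8 (chr15:102004293-102004592, minus): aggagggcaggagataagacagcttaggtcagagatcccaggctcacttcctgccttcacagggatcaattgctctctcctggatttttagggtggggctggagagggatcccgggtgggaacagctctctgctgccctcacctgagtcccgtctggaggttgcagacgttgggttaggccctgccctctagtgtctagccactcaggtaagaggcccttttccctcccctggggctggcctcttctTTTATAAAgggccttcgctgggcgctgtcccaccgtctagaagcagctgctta
Krt18 (chr15:102027966-102028265, plus): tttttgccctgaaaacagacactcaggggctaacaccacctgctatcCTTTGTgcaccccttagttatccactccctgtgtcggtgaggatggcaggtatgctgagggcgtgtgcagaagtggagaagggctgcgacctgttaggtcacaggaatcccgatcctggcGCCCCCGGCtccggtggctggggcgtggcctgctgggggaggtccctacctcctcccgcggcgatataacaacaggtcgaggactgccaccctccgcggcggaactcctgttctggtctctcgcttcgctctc
Of these 4 windows, the Krt18 window holds a TCF/LEF core, CTTTGT at position -203 from the start, and the other 3 windows hold neither core. Either core occurs in 31.2% of 32851 RefSeq promoter windows of this length. The AP-2 motif, present in 16.6% of windows, occurs at -146 and -70 in Krt7 and at -83 in Krt18. The Krt8 window holds TATAAA at -3 on the minus strand and at -1 on the plus strand, which overlap, and TATAAA occurs in 13.6% of windows. The RefSeq start of Krt8 lies 140 bases downstream of its GENCODE start, so positions in this window depend on the start used. For Krt5, Krt7 and Krt18 the RefSeq start lies 7, 1 and 36 bases from the nearest GENCODE coding start. A match is a run of letters only. The start site of the RefSeq window of Krt14 lies 1518 bases downstream of the start of its coding transcript and is not shown, and Krt15 and Krt19 are named only.

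Library totals ran from 26768810 to 36922108 counts. Median correlations with the other libraries of a group were 0.927 to 0.965, except 0.903 in E13.5 control replicate 3, which also had 4.18% mitochondrial counts against 2.18 to 2.50% in the other E13.5 controls. Mitochondrial counts made up 2.62 to 5.36% in E16.5 stabilized and 2.21 to 3.88% in E16.5 control libraries, and their part in the results was not tested. In the keratins themselves, E16.5 stabilized replicate 1 and E13.5 stabilized replicate 2 lay farthest from their groups. Each count of keratins called is therefore also given without these 3 libraries. The targeted gene, Ctnnb1, averaged 2278 ± 564 CPM (read counts scaled to a common library size) in E16.5 stabilized and 1248 ± 111 CPM in E16.5 control epithelium (SD, n = 5 each), a log2 fold change of 0.87 ± 0.148 (SE; edgeR adjusted p = 9.02e-05). At E13.5 it averaged 3260.0 ± 347 CPM in stabilized and 2683 ± 333 CPM in control epithelium (SD, n = 4 each; log2 fold change 0.28 ± 0.165 (SE), adjusted p = 0.307). Epcam, a marker of epithelia, averaged 212 ± 27.8 CPM in E16.5 stabilized, 415 ± 10.5 in E16.5 control, 259.6 ± 19.2 in E13.5 stabilized and 310.4 ± 44.9 CPM in E13.5 control libraries. Gene counts do not show the loss of exon 3, so they check neither the recombination nor the share of recombined cells. CPM throughout is scaled by library total and by TMM factor, edgeR's correction for RNA composition.

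Set between genes as CPM per kilobase of merged exons, the order of the keratins differed between the genotypes. In E16.5 stabilized epithelium Krt5 stood first at 1163 ± 369 CPM per kb, followed by Krt15 at 451 ± 53.5 and Krt14 at 295 ± 139 (SD, n = 5). Krt15 exceeded Krt14 in 4 of 5 of these libraries, and their ranges overlapped. Next came Krt18 at 38.3 ± 15.3, Krt8 at 26.2 ± 14.4, Krt7 at 19.1 ± 10.6 and Krt19 at 16.3 ± 3.60 CPM per kb, whose ranges overlapped from each to the next. Krt7 exceeded Krt19 in 1 of 5 of these libraries, replicate 1. In E16.5 control epithelium Krt14 stood first at 382 ± 39.8 CPM per kb, above Krt5 at 209 ± 48.0 in 5 of 5 libraries. The simple pair followed, with Krt18 at 139 ± 31.8 and Krt8 at 125 ± 21.2 CPM per kb. The ranges of Krt5 and Krt18, and of Krt18 and Krt8, overlapped. Krt15 at 27.1 ± 14.0, Krt19 at 2.67 ± 0.969 and Krt7 at 0.444 ± 0.135 CPM per kb were last, each apart from the next in 5 of 5 libraries.

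At E13.5 the leading keratin differed in the same way. In stabilized epithelium Krt5 led at 623 ± 161 CPM per kb, ahead of Krt14 at 199 ± 35.8 and Krt15 at 182 ± 82.3 (SD, n = 4), which overlapped each other. Krt14 was above Krt15 in 1 of these 4 libraries, replicate 2. Krt18 at 57.3 ± 2.34 and Krt8 at 42.3 ± 11.1 also overlapped, and Krt19 at 19.5 ± 8.25 and Krt7 at 1.22 ± 0.513 CPM per kb closed the order. In E13.5 control epithelium all 7 levels were separate in every library. Krt14 stood at 462 ± 59.3, Krt5 at 279 ± 48.5, Krt8 at 137 ± 16.7, Krt18 at 83.6 ± 14.4, Krt15 at 52.3 ± 11.2, Krt19 at 14.4 ± 5.04 and Krt7 at 0.155 ± 0.0457 CPM per kb. Krt7 has 7049 bases of merged exons but 4094 in its longest transcript. With that shorter length its mean in E16.5 stabilized epithelium is 32.9 CPM per kb and passes that of Krt8. Krt7 was then above Krt8 in 1 of 5 of these libraries, replicate 1. No other rank changes.

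**Figure D1:**
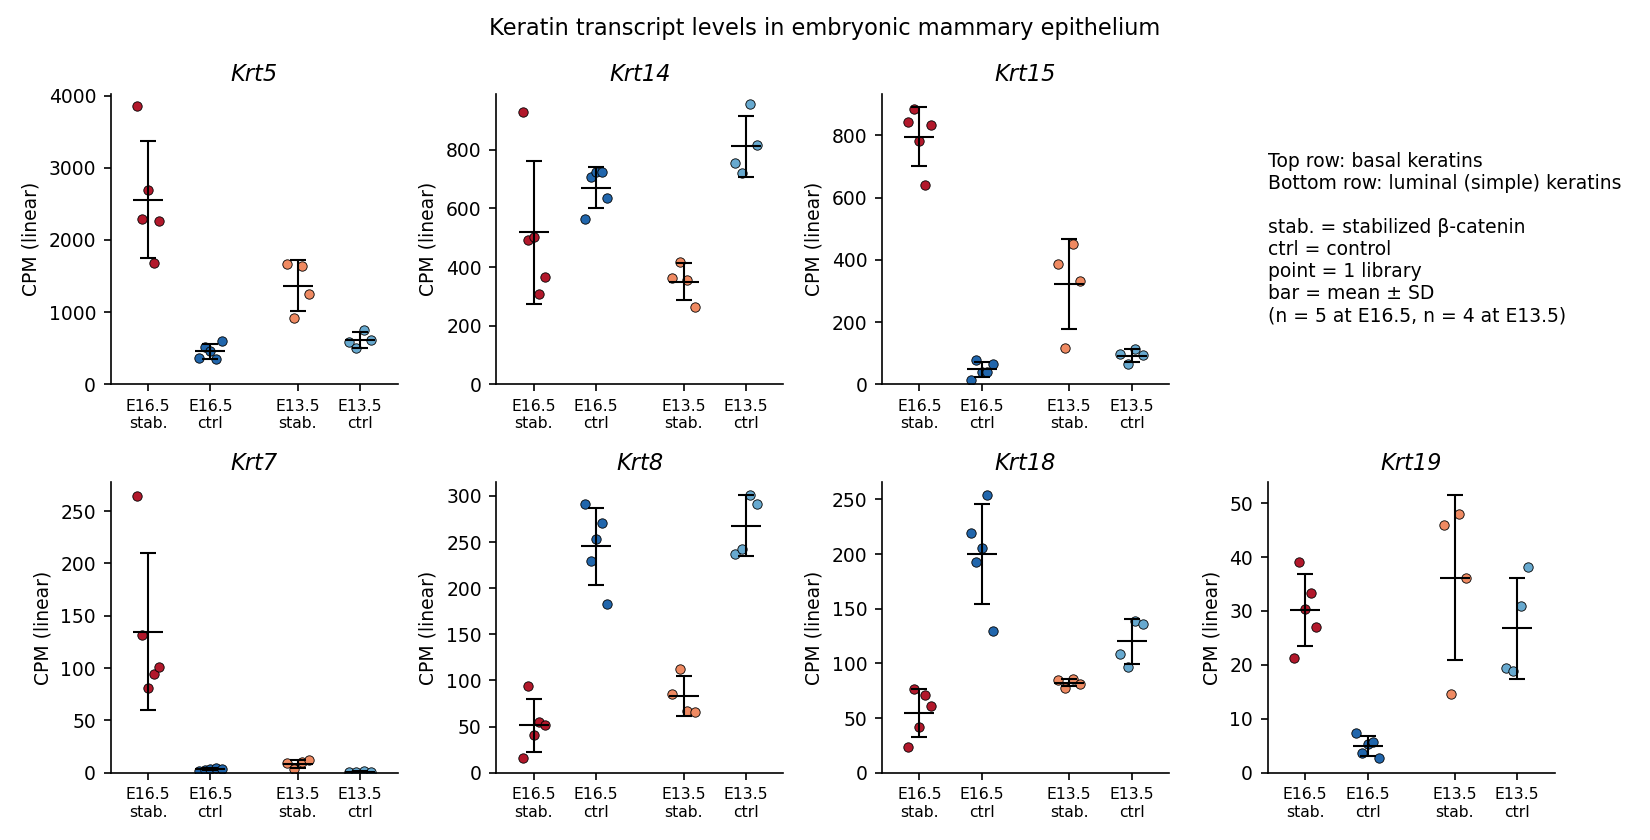
CPM of the 7 keratins by group, on a linear axis from 0 with its own scale for each gene, 1 point per library and bars for the mean ± SD. Krt5, Krt15 and Krt7 sit higher and Krt8 lower in stabilized than in control libraries at both stages, and Krt14 overlaps between genotypes at E16.5.

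At E16.5, stabilized epithelium held more Krt5, Krt15, Krt7 and Krt19 and less Krt8 and Krt18 than control epithelium. Thus 6 of the 7 keratins passed the edgeR test at an adjusted p of 0.05, 4 higher and 2 lower. The background was high, since 41.7% of all tested genes passed this test, 22.2% higher and 19.4% lower. In bulk RNA, fewer cells of a type and less RNA per cell cannot be told apart. The median log2 fold change was 2.48 over the 7 keratins and 0.10 over all tested genes.

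Among the basal keratins, Krt5 stood at 3855, 2287, 2693, 1684 and 2261 CPM in E16.5 stabilized replicates 1 to 5, against 358, 520.2, 462, 355 and 599 CPM in E16.5 control replicates 1 to 5. The lowest stabilized library was thus well above the highest control, and Krt5 was 5.57-fold higher (log2 fold change 2.48 ± 0.225 (SE), adjusted p = 4.30e-08). Its type I relative Krt15 stood at 843, 884, 781, 641 and 835 CPM in the stabilized libraries, against 14.6, 78.7, 40.3, 40.7 and 65.0 CPM in the controls. These groups were even farther apart, with an increase of 16.6-fold (log2 fold change 4.06 ± 0.414 (SE), adjusted p = 7.34e-07), and control replicate 1 was the lowest of all. Krt14, the usual partner of Krt5, stood at 929, 494, 502, 307 and 365 CPM in the stabilized libraries and 565, 706, 724, 725 and 634 CPM in the controls. Here the groups overlapped because of stabilized replicate 1, and the difference did not pass (log2 fold change -0.37 ± 0.218 (SE), adjusted p = 0.189). Without that library Krt14 was lower in stabilized epithelium (log2 fold change -0.69, adjusted p = 0.00235), and 7 of 7 keratins passed. In that fit 6572 of 17112 tested genes passed.

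Of the simple keratins, Krt8 stood at 15.6, 93.7, 40.8, 54.5 and 51.8 CPM in E16.5 stabilized epithelium, against 291, 229, 253, 270.1 and 183 CPM in E16.5 control epithelium. It fell 4.78-fold (log2 fold change -2.26 ± 0.322 (SE), adjusted p = 2.48e-05), and stabilized replicate 1 was the lowest library. Its partner Krt18 stood at 23.5, 76.6, 42.2, 71.6 and 61.0 CPM in the stabilized libraries and 219, 193, 205, 254 and 129.5 CPM in the controls. Krt18 fell 3.64-fold (log2 fold change -1.86 ± 0.247 (SE), adjusted p = 7.32e-06), with the same stabilized library lowest. The other simple keratins went the opposite way. Krt7 stood at 265, 132, 80.8, 94.5 and 101 CPM in the stabilized libraries, against 1.93, 2.52, 3.27, 4.42 and 3.50 CPM in the controls. It was 43.1-fold higher, the largest change of the 7 (log2 fold change 5.43 ± 0.409 (SE), adjusted p = 1.26e-08). Krt19, a type I keratin with a very short tail domain, stood at 21.2, 39.1, 30.3, 33.3 and 27.1 CPM in the stabilized libraries and 7.33, 3.62, 5.26, 5.80 and 2.78 CPM in the controls. It was 6.08-fold higher (log2 fold change 2.60 ± 0.326 (SE), adjusted p = 3.26e-06). The 4 keratins named as luminal thus did not move as 1 group: 2 were higher and 2 lower.

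Some keratin sequence is shared between genes. Of the 31-base words in Krt5 transcripts, 15.78% also occur in transcripts of other genes, most often Krt6a, and the share was 28.24% for Krt14, most often with Krt16. Krt6a averaged 1329 ± 1458 CPM in E16.5 stabilized and 18.4 ± 7.94 CPM in E16.5 control epithelium. Krt16 averaged 334 ± 479 CPM in E16.5 stabilized epithelium, with 1188 CPM in the highest library, and 3.69 ± 1.89 CPM in E16.5 control epithelium. Counts split between Krt5 and Krt6a, or between Krt14 and Krt16, are thus uncertain at that stage. The part of this in the Krt14 values was not tested. Krt8 shared 36.05% of its words, most often with the pseudogene Krt8-ps, which reached at most 3.69 CPM in any library. Krt18 shared 11.37%, Krt15 3.74%, Krt7 3.03% and Krt19 0.44%. Krt7 also overlaps the antisense gene Gm671 at its 5′ end, Krt5 a microRNA gene and Krt8 a long noncoding gene, none of which has a row in the count table. Strand use in the counting is not given in the sources used here. Of the 7065 words of Krt7, 48 are shared with Gm671, and reads from that stretch cannot be assigned to either gene without strand.

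At E13.5, the earlier stage, Krt5, Krt15 and Krt7 were already higher and Krt8 already lower in stabilized than in control epithelium, and Krt14 was lower. Thus 5 of the 7 keratins passed the test, 3 higher and 2 lower, while 14.9% of all tested genes passed, 9.58% higher and 5.29% lower. The median log2 fold change was 0.43 over the 7 keratins and 0.01 over all tested genes.

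Krt5 stood at 1672, 923, 1636 and 1245 CPM in E13.5 stabilized replicates 1 to 4, against 588, 498, 755 and 611 CPM in E13.5 control replicates 1 to 4. The increase was 2.23-fold (log2 fold change 1.16 ± 0.241 (SE), adjusted p = 0.00210), and stabilized replicate 2 came closest to the controls. Krt15 stood at 387, 117, 452 and 333 CPM in the stabilized libraries and 95.9, 66.2, 114 and 93.7 CPM in the controls. Stabilized replicate 2, at 117 CPM, lay just above the highest control, and the increase was 3.49-fold (log2 fold change 1.80 ± 0.422 (SE), adjusted p = 0.00721). Krt14 stood at 362, 416, 355 and 264 CPM in the stabilized libraries, against 756, 721, 958 and 815 CPM in the controls. It fell 2.33-fold (log2 fold change -1.22 ± 0.247 (SE), adjusted p = 0.00169), so the partners Krt5 and Krt14 changed in opposite directions at this stage. Stabilized β-catenin and the Krt14Cre allele itself cannot be told apart in this fall of Krt14.

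Krt8 stood at 85.7, 113, 66.8 and 66.2 CPM in E13.5 stabilized and 237, 242, 301 and 291 CPM in E13.5 control epithelium. It fell 3.23-fold (log2 fold change -1.69 ± 0.353 (SE), adjusted p = 0.00293), with no overlap. Krt18 stood at 84.4, 78.0, 85.4 and 81.4 CPM in the stabilized libraries, within a narrow span, against 109, 96.6, 139 and 136 CPM in the controls. These ranges did not overlap either, yet the difference did not pass (log2 fold change -0.55 ± 0.268 (SE), adjusted p = 0.208). It passed when the fit used the libraries of the E13.5 groups alone (log2 fold change -0.55, adjusted p = 0.0279). Krt7 was scarce at this stage, at 8.96, 3.48, 10.2 and 11.8 CPM in the stabilized libraries and 0.947, 0.863, 1.57 and 1.00 CPM in the controls. The controls rested on 29 to 47 counts each, and Krt7 was 7.86-fold higher in stabilized epithelium (log2 fold change 2.98 ± 0.432 (SE), adjusted p = 0.000101). Krt19 stood at 46.0, 14.6, 48.0 and 36.1 CPM in the stabilized libraries and 19.3, 18.9, 30.8 and 38.1 CPM in the controls. Its groups overlapped, with stabilized replicate 2 the lowest of the 8 libraries, and the difference did not pass (log2 fold change 0.43 ± 0.340 (SE), adjusted p = 0.485).

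**Figure D2:**
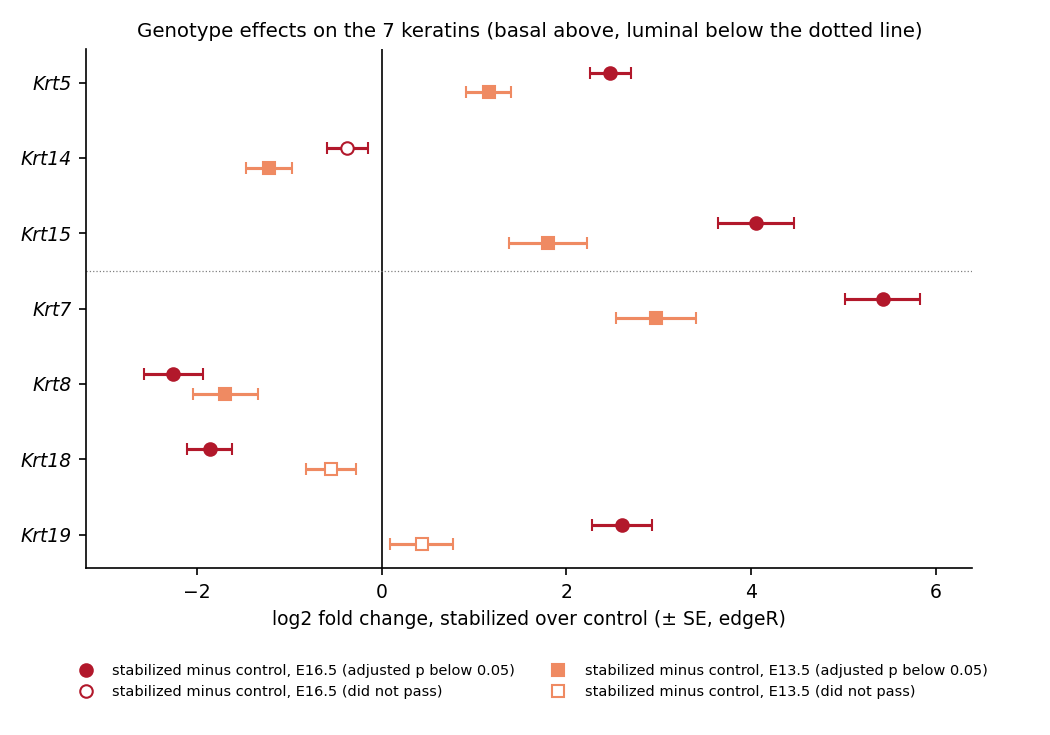
Log2 fold change of each keratin, stabilized over control, with error bars of 1 SE, at E16.5 (circles) and at E13.5 (squares); filled symbols passed the edgeR test and open ones did not. The points for Krt5, Krt15, Krt7 and Krt19 lie farther right at E16.5 than at E13.5, and those of Krt8 and Krt18 lie left of 0 at both stages.

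The genotype effect itself differed between the stages for 5 of the 7 keratins, 4 more positive and 1 more negative at E16.5, where 32.2% of all tested genes passed this interaction test, 15.6% more positive and 16.6% more negative. The shift between the effects, E16.5 minus E13.5, was 1.32 for Krt5 (adjusted p = 0.00351), 2.26 for Krt15 (adjusted p = 0.00503) and 2.45 for Krt7 (adjusted p = 0.00229) on the log2 scale. These 3 were higher in stabilized epithelium at both stages, and more so at E16.5. For Krt19 the shift was 2.17 (adjusted p = 0.00137) and for Krt18 -1.32 (adjusted p = 0.00881). Neither had passed the genotype test at E13.5. For Krt14 the shift of 0.85 did not pass (adjusted p = 0.0541), nor did that of -0.56 for Krt8 (adjusted p = 0.388). The Krt7 shift was 1.57, adjusted p = 0.00141, without the 3 libraries that stand apart. With the offsets of the deposited normalized table it was 2.11, adjusted p = 0.0999.

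The change with stage was read within each genotype. In controls 3 of the 7 passed, 2 higher and 1 lower at E16.5, against 47.5% of all tested genes, 24.9% higher and 22.6% lower. Krt19 fell 5.39-fold, at 4.96 ± 1.80 CPM in E16.5 and 26.8 ± 9.35 CPM in E13.5 controls (log2 fold change -2.43 ± 0.334 (SE), adjusted p = 8.37e-06). Krt18 was 1.67-fold higher, at 200.1 ± 45.7 CPM in E16.5 and 120.2 ± 20.7 CPM in E13.5 controls (log2 fold change 0.74 ± 0.257 (SE), adjusted p = 0.0251). This call was lost when any 1 of 4 control libraries was left out, with adjusted p = 0.0636 without E13.5 replicate 1, 0.0759 without E13.5 replicate 2, 0.0503 without E16.5 replicate 1 and 0.0641 without E16.5 replicate 4. Krt7 was 2.85-fold higher, at 3.13 ± 0.955 CPM in E16.5 and 1.10 ± 0.322 CPM in E13.5 controls (log2 fold change 1.51 ± 0.412 (SE), adjusted p = 0.00603), a call lost with the offsets of the deposited normalized table (log2 fold change 1.02, adjusted p = 0.235). The other 4 did not pass, with log2 fold changes of -0.95 for Krt15, -0.42 for Krt5, -0.28 for Krt14 and -0.13 for Krt8. Krt15 lay close to the threshold (adjusted p = 0.0539) and passed without E16.5 control replicate 2 (log2 fold change -1.22, adjusted p = 0.0196).

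In stabilized epithelium 3 of the 7 passed, against 28.0% of all tested genes. Krt7 was 15.6-fold higher, at 135 ± 75.0 CPM in E16.5 and 8.62 ± 3.62 CPM in E13.5 stabilized libraries (log2 fold change 3.96 ± 0.416 (SE), adjusted p = 2.01e-06). The log2 fold change was 3.13, adjusted p = 0.00231, with the offsets of the deposited normalized table and 3.31, adjusted p = 6.71e-08, without the 3 libraries that stand apart. Krt5 was 1.87-fold higher, at 2556 ± 810.1 CPM in E16.5 and 1369 ± 355 CPM in E13.5 stabilized libraries (log2 fold change 0.90 ± 0.230 (SE), adjusted p = 0.00591). Krt15 was 2.47-fold higher, at 797 ± 94.5 CPM in E16.5 and 322 ± 145 CPM in E13.5 stabilized libraries (log2 fold change 1.31 ± 0.400 (SE), adjusted p = 0.0218). The Krt15 call was lost without E13.5 stabilized replicate 2 (log2 fold change 1.03, adjusted p = 0.0522). Krt19 stood at 30.2 ± 6.68 CPM at E16.5 beside 36.2 ± 15.3 CPM at E13.5, and its difference did not pass (log2 fold change -0.26 ± 0.321 (SE), adjusted p = 0.611). The rest did not pass either, with log2 fold changes of 0.57 for Krt14, -0.69 for Krt8 and -0.58 for Krt18. Without E16.5 stabilized replicate 2, where Krt8 and Krt18 were highest of the 5, both passed and were lower at E16.5, with a log2 fold change of -1.01, adjusted p = 0.0137, for Krt8 and of -0.72, adjusted p = 0.0474, for Krt18. That raised the count to 5 of 7, where the 28.0% over all tested genes is from the fit with all libraries.

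As a description of how the 7 were balanced, shares and ratios were taken from CPM per kb in each library. The basal keratins made up 94.7 ± 2.17% of the sum of the 7 in E16.5 stabilized and 69.7 ± 6.49% in E16.5 control epithelium (SD, n = 5 each). At E13.5 they made up 89.0 ± 2.27% in stabilized and 77.1 ± 1.49% in control epithelium (SD, n = 4 each). The basal share was thus higher in stabilized epithelium at both stages, while the share of Krt14 alone was lower. Krt14 made up 14.2 ± 2.77% in E16.5 stabilized and 43.0 ± 1.96% in E16.5 control epithelium. At E13.5 it made up 18.4 ± 6.43% in stabilized and 45.0 ± 1.29% in control epithelium. The simple pair Krt8 and Krt18 together made up 0.859, 5.16, 2.47, 5.49 and 3.81% in the E16.5 stabilized libraries, against 37.7, 26.8, 29.6, 34.4 and 21.5% in the E16.5 controls. At E13.5 the pair made up 7.80, 13.3, 7.07 and 8.90% in the stabilized libraries and 20.5, 21.8, 20.5 and 23.0% in the controls. The ranges did not overlap at either stage.

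**Figure D3:**
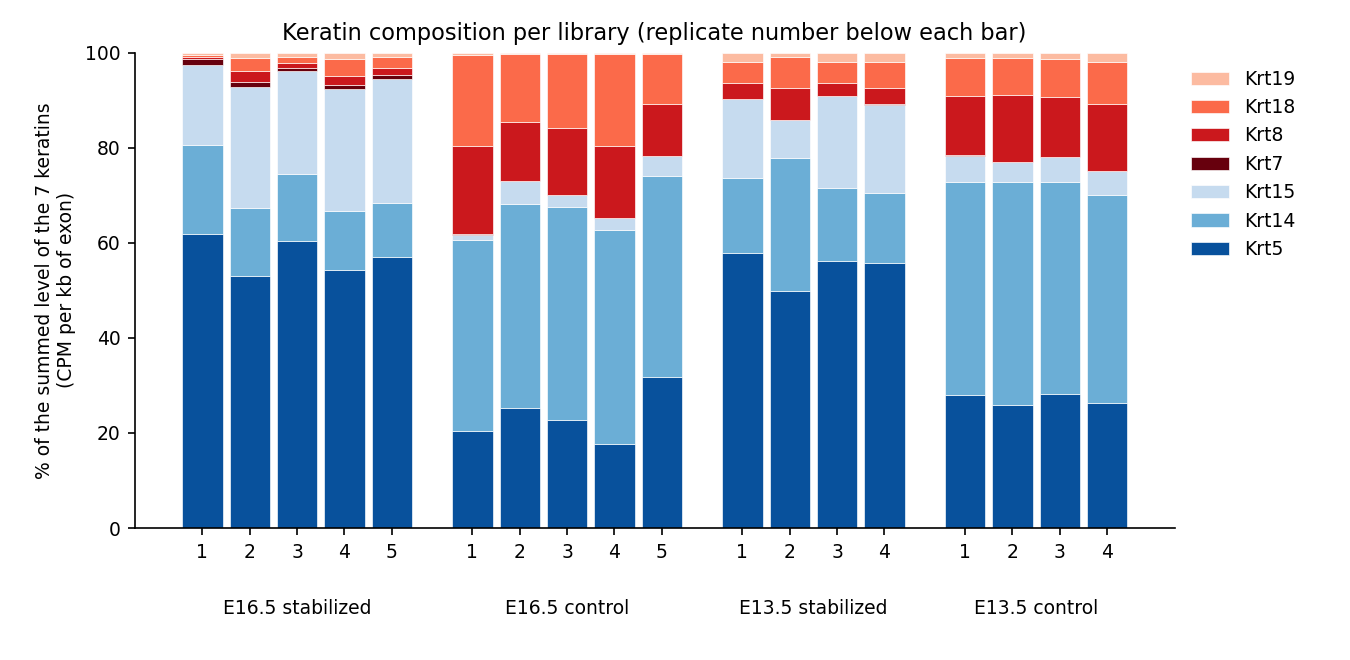
Share of each keratin in the summed CPM per kb of the 7, in percent, 1 stacked bar per library. Krt5 and Krt15 fill a larger part, and Krt8 with Krt18 a smaller part, of every stabilized bar than of the control bars of the same stage.

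The partners of a filament pair did not keep a fixed ratio. Krt5 stood to Krt14 as 3.32, 3.71, 4.29, 4.39 and 4.96 in the E16.5 stabilized libraries, against 0.507, 0.590, 0.510, 0.392 and 0.756 in the E16.5 controls. At E13.5 this ratio was 3.70, 1.77, 3.69 and 3.77 in the stabilized libraries and 0.623, 0.552, 0.631 and 0.600 in the controls. Krt5 therefore exceeded Krt14 in all 9 stabilized libraries and stayed below it in all 9 controls. The ratio of Krt15 to Krt14, both type I, was 1.72 ± 0.535 in E16.5 stabilized and 0.0700 ± 0.0356 in E16.5 control epithelium (SD, n = 5 each). At E13.5 it was 0.966 ± 0.467 in stabilized and 0.113 ± 0.0150 in control epithelium (SD, n = 4 each). For the simple pair, Krt8 stood to Krt18 as 0.486, 0.898, 0.711, 0.559 and 0.624 in the E16.5 stabilized libraries and 0.977, 0.872, 0.904, 0.779 and 1.04 in the E16.5 controls. At E13.5 it stood as 0.745, 1.06, 0.574 and 0.597 in the stabilized libraries and 1.60, 1.84, 1.59 and 1.57 in the controls. Krt8 exceeded Krt18 in every E13.5 control library. Over all 7, type II stood to type I as 1.49 ± 0.191 in E16.5 stabilized and 0.614 ± 0.0948 in E16.5 control epithelium. At E13.5 that ratio was 1.45 ± 0.113 in stabilized and 0.678 ± 0.00898 in control epithelium.

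**Figure D4:**
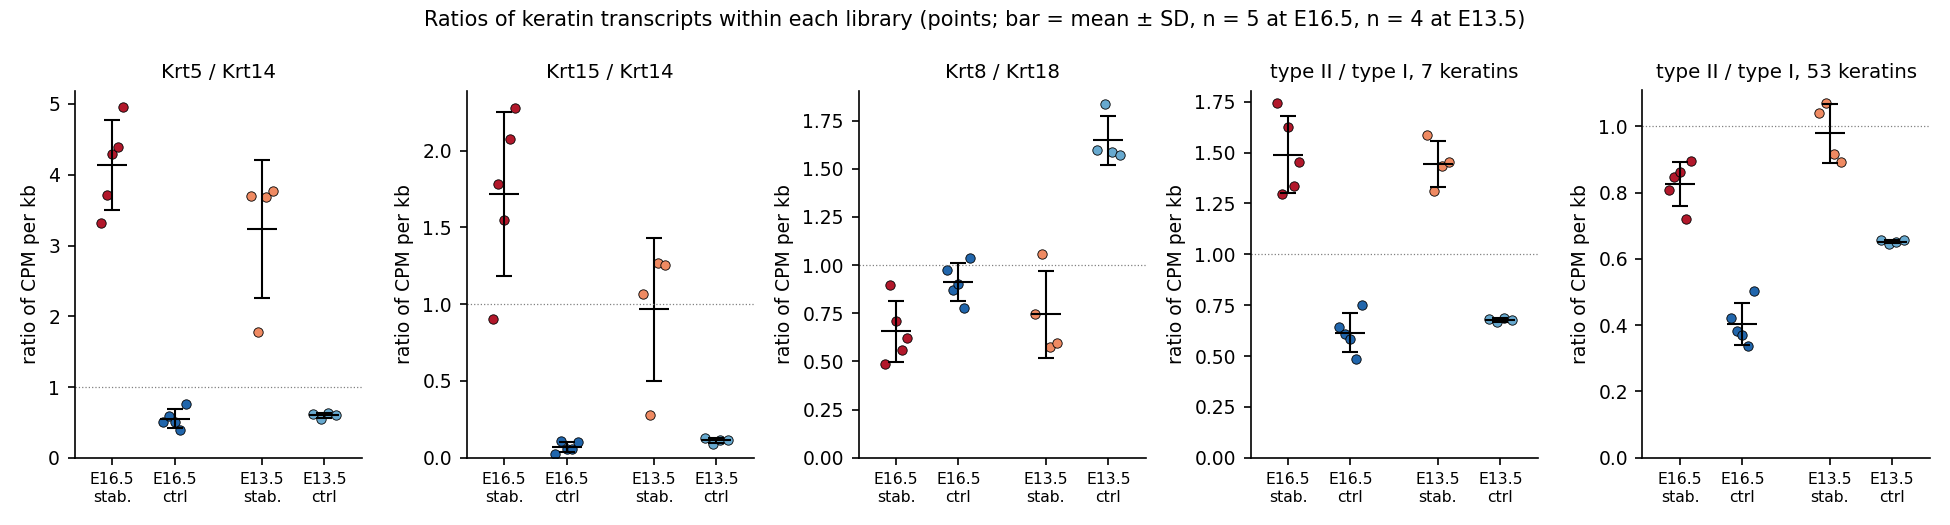
Ratios between keratins in CPM per kb by group, on linear axes from 0, 1 point per library and bars for the mean ± SD; the dotted line marks a ratio of 1. The ratio of Krt5 to Krt14 lies above 1 in all stabilized and below 1 in all control libraries.

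The 7 were a smaller part of all keratin RNA in stabilized epithelium, although their own mean sum was not lower. That sum was 2009 ± 519 CPM per kb in E16.5 stabilized and 885 ± 57.7 in E16.5 control libraries (SD). At E13.5 it was 1124 ± 236 in stabilized and 1028.5 ± 148 in control libraries, which overlapped. All keratins together averaged 10204 ± 5293 CPM per kb in E16.5 stabilized and 1452 ± 174 in E16.5 control libraries. At E13.5 they averaged 1371 ± 335 in stabilized and 1057 ± 159 in control libraries. Summed over all 53 keratin genes of the table in CPM per kb, the 7 made up 14.5 to 26.6% in E16.5 stabilized and 58.4 to 68.3% in E16.5 control libraries. At E13.5 they made up 78.3 to 90.9% in stabilized and 96.3 to 98.0% in control libraries. Over all 53, type II stood to type I as 0.721 to 0.896 in E16.5 stabilized and 0.338 to 0.503 in E16.5 control libraries. The corresponding E13.5 values were 0.892 to 1.07 in stabilized and 0.644 to 0.656 in control libraries.

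Other keratins of skin and its appendages moved beside the 7. For this list and those that follow, the shares over all tested genes were 22.2% higher and 19.4% lower at E16.5. At E13.5 they were 9.58% higher and 5.29% lower. From a list of 18 further epithelial keratins, 15 were tested, and 12 were higher in stabilized epithelium at E16.5 (list median log2 fold change 4.79). Krt75, a keratin of the hair follicle companion layer, averaged 218 ± 94.6 CPM in stabilized and 0.0883 ± 0.131 CPM in control epithelium at E16.5 (SD, n = 5 each; log2 fold change 11.22, adjusted p = 1.46e-07). Krt80 averaged 297 ± 178 CPM in stabilized and 18.1 ± 3.36 CPM in control epithelium (log2 fold change 4.04, adjusted p = 1.67e-05). Krt77 averaged 152 ± 144 CPM in stabilized and 2.91 ± 2.18 CPM in control epithelium (log2 fold change 5.72, adjusted p = 1.67e-05). At E13.5, 6 of the 15 were higher (list median 3.54). No gene of this list was lower at either stage, by edgeR, by DESeq2 or at an unadjusted p under 0.05. Among the higher ones was Krt17, a type I keratin of embryonic ectoderm and skin appendages, at 326 ± 149 CPM in stabilized and 27.5 ± 13.4 CPM in control epithelium (log2 fold change 3.57, adjusted p = 2.48e-05). The summed level of the list was 27063 CPM in E16.5 stabilized replicate 1 and 4170 to 5352 CPM in the other 4 libraries of that group. Its part in the high Krt14 and low Krt8 of that library was not tested.

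Keratin filaments are held at desmosomes and hemidesmosomes by plaque proteins and plakins. Of 17 such anchor genes, 13 were higher and 2 lower in stabilized epithelium at E16.5 (list median log2 fold change 1.55), and 7 higher and 1 lower at E13.5 (list median 0.57). Dst, a plakin of hemidesmosomes, averaged 628 ± 102 CPM in stabilized and 122 ± 8.32 CPM in control epithelium at E16.5 (log2 fold change 2.37, adjusted p = 8.50e-10). Dsp, the desmosomal plakin that binds keratin, averaged 7317 ± 3051 CPM in stabilized and 963 ± 116 CPM in control epithelium at E16.5 (log2 fold change 2.93, adjusted p = 1.99e-09). Itga6, an integrin chain of hemidesmosomes, fell at E13.5, to 277 ± 62.6 CPM in stabilized against 784 ± 181 CPM in control epithelium (log2 fold change -1.50, adjusted p = 4.56e-06).

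Markers of the layers that these keratins name did not all follow them. Over all tested genes 22.2% were higher and 19.4% lower at E16.5, and 9.58% higher and 5.29% lower at E13.5. Of 18 other basal and myoepithelial genes, 8 were higher and 4 lower at E16.5 (list median -0.22), and 7 higher at E13.5 (list median 0.62). Trp63, a transcription factor of basal cells, averaged 732 ± 41.2 CPM in stabilized and 92.1 ± 12.1 CPM in control epithelium at E16.5 (log2 fold change 2.99, adjusted p = 1.41e-12). At E13.5 it averaged 455 ± 40.4 CPM in stabilized and 414 ± 50.8 CPM in control epithelium (log2 fold change 0.14, adjusted p = 0.557), while Krt5 was already higher. Of 24 luminal genes, 3 were higher and 10 lower at E16.5 (list median -0.54), and 6 higher and 6 lower at E13.5 (list median 0.13). Sox10, a transcription factor of embryonic mammary cells, fell at E16.5, to 29.6 ± 19.9 CPM in stabilized against 554 ± 59.0 CPM in control epithelium (log2 fold change -4.22, adjusted p = 5.88e-07). At E13.5 it was higher, at 8.16 ± 2.71 CPM in stabilized and 1.32 ± 0.507 CPM in control epithelium (log2 fold change 2.62, adjusted p = 0.000995). Kit, a receptor of luminal progenitors, fell at E13.5, to 17.8 ± 6.03 CPM in stabilized against 75.9 ± 12.7 CPM in control epithelium (log2 fold change -2.09, adjusted p = 2.66e-06), and also at E16.5 (log2 fold change -1.83, adjusted p = 7.08e-07). Aldh1a3, a retinaldehyde dehydrogenase, rose at E13.5, to 54.2 ± 15.7 CPM in stabilized against 0.769 ± 0.917 CPM in control epithelium (log2 fold change 6.12, adjusted p = 3.16e-06). At E16.5 it fell, to 32.0 ± 7.46 CPM in stabilized against 173 ± 16.7 CPM in control epithelium (log2 fold change -2.43, adjusted p = 0.000294).

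Markers of other cell types that the dissected tissue could hold also differed. Of 10 periderm genes, which include Krt6a and Krt17 of the keratin list, 8 were higher and 2 lower at E16.5 (list median 1.20), and 6 higher at E13.5 (list median 0.89). Their summed level ran from 4481 to 12430.2 CPM in E16.5 stabilized and 1267 to 1625 CPM in E16.5 control libraries. At E13.5 it ran from 952 to 1607 CPM in stabilized and 784 to 849.6 CPM in control libraries. Within the E16.5 sums, Krt17 averaged 2823 ± 1363 CPM in stabilized and 682 ± 141 CPM in control libraries. Krt6a averaged 1329 ± 1458 and 18.4 ± 7.94 CPM in the same groups. The 2 lower genes at E16.5 were Cldn6 (log2 fold change -1.63, adjusted p = 1.13e-07) and Upk1b (log2 fold change -1.70, adjusted p = 0.0213). Merkel cells are a cell type of skin that also carries Krt8 and Krt18. Of 8 of their genes, among them Krt20 of the keratin list, 6 were tested, with 4 higher at E16.5 (list median 3.12, or 2.48 with genes at 0 counts in a group set to a floor of 3 counts over the group). At E13.5, 3 were higher and 1 lower (list median 6.11, or 4.86 with that floor). Atoh1, the defining Merkel cell factor, had 0 counts in all stabilized and all E13.5 control libraries and 21 counts in all over the 5 E16.5 controls, and was not tested. The list summed to 65.2 to 97.8 CPM in E16.5 stabilized and 27.8 to 39.9 CPM in E16.5 control libraries. At E13.5 the sum was 71.2 to 114 CPM in stabilized and 47.1 to 56.7 CPM in control libraries. Rab3c, a vesicle transport gene, had the highest mean of the list in E13.5 stabilized libraries, at 42.8 ± 5.77 CPM against 0.953 ± 1.14 CPM in controls (log2 fold change 5.49, adjusted p = 0.000897). Isl1 averaged 12.1 ± 6.97 CPM in E13.5 stabilized libraries and had 0 counts in E13.5 controls (adjusted p = 4.77e-05). It was also higher at E16.5 (log2 fold change 6.11, adjusted p = 2.11e-05). Sox2 was higher at E13.5 (log2 fold change 6.88, adjusted p = 0.000781) and did not pass at E16.5 (log2 fold change 0.87, adjusted p = 0.477). Piezo2, a touch-sensing ion channel, was the gene that fell at E13.5, at 30.3 ± 4.64 CPM in stabilized and 51.4 ± 4.02 CPM in control epithelium (log2 fold change -0.76, adjusted p = 0.00179). At E16.5 it was higher, at 49.8 ± 8.55 CPM in stabilized and 32.0 ± 4.75 CPM in control epithelium (log2 fold change 0.64, adjusted p = 0.000985). Piezo2 thus made up most of the list's sum in the controls of both stages. In the lists where no gene is given as lower (basal and periderm at E13.5, Merkel at E16.5), none was lower by DESeq2 or at an unadjusted p under 0.05 either. The part of periderm or Merkel cells in the keratin levels was not tested.

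Markers of cells outside the epithelium were also counted. Of 11 tested mesenchyme genes, 1 was higher and 3 lower at E16.5 (list median -0.58), and 1 lower at E13.5 (list median -0.89). At E16.5 DESeq2 called 3 higher and 3 lower, and 4 were higher and 3 lower at an unadjusted p under 0.05 in edgeR. At E13.5 both gave 1 higher and 1 lower. The full list of 12 summed to 529 to 878 CPM in E16.5 stabilized and 565 to 1000.2 CPM in E16.5 control libraries, and to 297 to 430.0 CPM in E13.5 stabilized and 417 to 1095 CPM in E13.5 control libraries. At E16.5 Dcn had the highest mean of the list in stabilized and Vim in control libraries, so the sums hide opposite changes. Vim, an intermediate filament gene best known from mesenchyme, fell at both stages. It averaged 175 ± 42.3 CPM in stabilized and 575 ± 83.0 CPM in control epithelium at E16.5 (log2 fold change -1.72, adjusted p = 9.46e-08), and 203 ± 23.1 CPM in stabilized and 463 ± 81.9 CPM in control epithelium at E13.5 (log2 fold change -1.19, adjusted p = 0.000107). The mesenchyme gene that was higher at E16.5 was Dcn, which encodes the matrix proteoglycan decorin, at 301 ± 74.7 CPM in stabilized and 4.02 ± 3.46 CPM in control epithelium (log2 fold change 6.22, adjusted p = 6.21e-05). At E13.5 Dcn averaged 14.6 ± 9.55 CPM in stabilized and 2.03 ± 1.76 CPM in control epithelium and did not pass (log2 fold change 2.85, adjusted p = 0.0502). By edgeR 0 of 5 endothelial and 0 of 6 immune genes passed at either stage. DESeq2 called 0 endothelial genes at either stage, 0 immune genes at E13.5 and 2 immune genes lower at E16.5, where 2 immune genes were also lower at an unadjusted p under 0.05 in edgeR. No endothelial gene at E16.5 and no immune gene at E13.5 reached that unadjusted level. At E13.5, 1 endothelial gene was higher and 1 lower at that unadjusted level. Endothelial medians were -1.08 at E16.5 and 0.43 at E13.5. Immune medians were -1.92 at E16.5 and 1.06 at E13.5, or 0.63 with the floor. The endothelial genes summed to 3.88 to 9.60 CPM in E16.5 stabilized and 3.14 to 14.0 CPM in E16.5 control libraries, and the immune genes to 6.16 to 8.49 CPM and 12.0 to 15.5 CPM in the same groups. Of 4 tested muscle genes, 1 was lower at E16.5 (list median -1.49) and 1 higher at E13.5 (list median 5.43, or 3.76 with the floor). Of 9 neural and melanocyte genes, 2 were higher at E16.5 (list median 0.38) and 1 at E13.5 (list median 1.28, or 1.22 with the floor).

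For each keratin the genes with the most similar profile were taken by Pearson's r of log2 CPM over the 18 libraries, among the 10036 genes whose mean log2 CPM reached 3. The 7 keratins themselves and genes with Gm or Rik symbols were left out of these, although Krt5 and Krt15 correlated with each other at r = 0.965. The libraries fall into 4 groups and share their scaling, so r mixes differences between and within groups and is given as a description. For Krt5 these were Fgfr3 (r = 0.967), Lamb3 (r = 0.962) and Mxi1 (r = 0.955), and for Krt15 they were Msx2 (r = 0.958), Lamb3 (r = 0.954) and Chl1 (r = 0.952). Lamb3 encodes a chain of the basement membrane laminin that basal cells adhere to. For Krt7 they were Asprv1 (r = 0.983), Fzd1 (r = 0.978) and Dst (r = 0.973), where Fzd1 is a Wnt receptor. For Krt8 they were Tshz2 (r = 0.929), Vim (r = 0.929) and Ccdc88a (r = 0.922), and for Krt18 Epcam (r = 0.940), Cldn7 (r = 0.936) and Hs6st2 (r = 0.934). Epcam and Cldn7 are adhesion and tight junction genes of simple epithelia. For Krt19 they were Msx1 (r = 0.950), Id3 (r = 0.941) and Pcdh10 (r = 0.928). Krt14 had no gene as close, with Cdo1 (r = 0.861), Ifngr2 (r = 0.857) and Plk2 (r = 0.849) at the top.

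Without the 3 libraries that stand apart, 7 of 7 keratins passed the genotype test at E16.5, with Krt14 added as lower (log2 fold change -0.69, adjusted p = 0.00111). The counts were 5 of 7 for the genotype effect at E13.5, 5 of 7 for the difference between the effects, 3 of 7 for stage in controls and 2 of 7 for stage in stabilized epithelium. The keratin lost in the last of these was Krt15 (log2 fold change 1.01, adjusted p = 0.0937). Among all genes in this fit, 7373 of 17497 passed for genotype at E16.5 and 3643 of 17497 at E13.5. With all 18 libraries, 32.2% of tested genes passed for the difference, 47.5% for stage in controls and 28.0% for stage in stabilized epithelium. E16.5 stabilized replicate 1 and E13.5 stabilized replicate 2 were picked for their keratin values, so these keratin counts are only a description.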

How the data were processed

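The 18 libraries of pooled mammary bud epithelium were prepared with Ovation SoLo, per the labels' protocols. Trimmomatic 0.39, Salmon 0.99.0 and the build mm10 are listed in the submitters' processing notes, beside FastQC 0.11.8, MultiQC 1.9 and DESeq2 3.15. Settings, annotation release and strand use were not given in the sources used here. The deposited table holds estimated counts per Ensembl gene, already whole numbers, so no rounding was applied. The deposited normalized table holds a signal, in which counts were divided by factors specific to gene and library, and served only as offsets in 1 alternative. A deposited saved R object was not used. Symbols, positions and exon lengths came from GENCODE M21 on GRCm38/mm10, which gave 24166 of 24376 genes a symbol. Promoters came from RefSeq on GRCm38.p6, which matched 5 of the 7 keratins, and were shown where the start lay within 200 bases of that of a GENCODE coding transcript.

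In edgeR 4.0.16 (R 4.3.3), filterByExpr with a minimum count of 10 kept 17269 genes, and a robust quasi-likelihood fit with TMM factors and 1 mean per group used all 18 libraries. Benjamini-Hochberg adjustment ran over all 17269 genes, with a threshold of 0.05, and tests were two-sided. They measure the spread between pools whose litters are not given per library. Library totals of 26768810 to 36922108 counts leave Krt7 in E13.5 controls at 29 to 47 counts a library. Alternatives were DESeq2 1.42.0, its size factors, no filter, the deposited offsets, a replicate block, fits of the compared groups alone, the length of the longest transcript and each replicate left out. The joint omission of 3 libraries was chosen after seeing the data. The rule for named genes takes the 7 keratins, Ctnnb1, up to 3 genes per list and genotype comparison with the smallest adjusted p (1 in non-epithelial lists) and the 3 most correlated genes per keratin. Atoh1, Dcn, Epcam, Krt6a, Krt16, Krt8-ps and Upk1b are also named where a statement on a list, the tissue or shared sequence needs them. The members, the 11 lists of 136 genes and the tests were chosen with earlier results of these data known, so no list gives independent support.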

Additional observations from a re-analysis of the deposited data

Results flagged for a closer look

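In E16.5 stabilized epithelium Krt7 was 265 CPM in replicate 1, against 132 CPM in the next library, a gap of 0.721 of the group's range where the 95% limit for 5 samples is 0.710. This was 1 of 28 group and keratin pairs examined, and chance flags about 1 in 20. Without that library the E16.5 genotype effect on Krt7 was a log2 fold change of 5.03, adjusted p = 1.25e-09 by edgeR. The genotype effect differed between E16.5 and E13.5, by an interaction term in edgeR, for 5 keratins, where 32.2% of all tested genes passed. On the log2 scale, E16.5 minus E13.5, the difference was 1.32 for Krt5 (adjusted p = 0.00351), 2.26 for Krt15 (adjusted p = 0.00503) and 2.45 for Krt7 (adjusted p = 0.00229). It was -1.32 for Krt18 (adjusted p = 0.00881) and 2.17 for Krt19 (adjusted p = 0.00137).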

How the results depend on the processing

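No keratin changed direction among 238 log2 fold changes recomputed under other settings or 378 with a replicate left out. Under other settings 227 kept their side of the threshold, 3 lost a call and 8 gained one, and with a replicate left out 363 kept it, 5 lost and 10 gained a call. Leaving out each replicate gave counts of keratins called of 6 to 7 for genotype at E16.5, 5 to 5 for genotype at E13.5, 5 to 6 for the difference between the effects, 2 to 4 for stage in controls and 2 to 5 for stage in stabilized epithelium. With all 18 libraries, the shares of all tested genes called were 41.7, 14.9, 32.2, 47.5 and 28.0% in the same order. The log2 fold change of Krt14 at E16.5 ran from -0.69 to -0.23 over the omissions of each replicate, with adjusted p from 0.00235 to 0.417.

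Krt14 also passed for the difference between the effects with DESeq2 (0.90, adjusted p = 0.0243) and with its size factors (0.90, adjusted p = 0.0430), for stage in stabilized epithelium with DESeq2 (0.59, adjusted p = 0.0425) and without E16.5 stabilized replicate 4 (0.73, adjusted p = 0.0185) or 5 (0.69, adjusted p = 0.0423), and for the difference without E13.5 stabilized replicate 2, E16.5 stabilized replicate 4 or E16.5 stabilized replicate 5. Krt15 passed for stage in controls with DESeq2 (-0.98, adjusted p = 0.0140), with its size factors (-0.98, adjusted p = 0.0469) and without E16.5 control replicate 5 (-1.09, adjusted p = 0.0444). With the deposited offsets the stage effect on Krt7 in stabilized epithelium was 3.13, adjusted p = 0.00231, and without the 3 libraries that stand apart it was 3.31, adjusted p = 6.71e-08. The replicate numbers were not taken as pairs in the main tests. Deviations of same-numbered samples correlated at -0.0995 to 0.131 at E16.5 and -0.0906 to 0.172 at E13.5, and 3 of 9 pairs correlated best with their own number. Litters are not given per library, so these correlations cannot show whether same-numbered samples are paired. With the replicate block the keratins called were 6 for genotype at E16.5, 5 at E13.5, 5 for the difference, 4 for stage in controls and 3 for stage in stabilized epithelium. The addition was Krt15 in controls (-1.07, adjusted p = 0.0225). Over all genes, the block fit called 6779 of 17269 for genotype at E16.5, 2219 at E13.5 and 5040 for the difference. For stage, the fit without the block called 47.5% of tested genes in controls and 28.0% in stabilized epithelium.

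With the length of the longest transcript, Krt7 made up 1.54% of the sum of the 7 in E16.5 stabilized and 0.0844% in E16.5 control epithelium, and 0.182% in E13.5 stabilized and 0.0252% in E13.5 control epithelium. The main shares were 0.917%, 0.0499%, 0.107% and 0.0149% in the same groups. The type II to type I ratio of E13.5 controls was 0.656 with that length and 0.678 with merged exons. The longest transcripts of Krt14, Krt15 and Krt19, all type I, are shorter than their merged exons, which lowers the ratio, and that of Krt7, type II, is shorter too, which raises it. Over all genes, 1712 passed for genotype at E13.5 with the deposited offsets and 1651 with the libraries of that stage alone, against 2569 with all 18 libraries and TMM. The cause was not tested.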
